A study of Gossypium hirsutum with 6 samples.

Results

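Dense H3K4me3 windows are stretches of 100 kb of the upland cotton genome that each held 10 or more H3K4me3 peaks found in leaf chromatin in 2 libraries. The 26 chromosomes, A01 to A13 and D01 to D13, were cut into windows of 100 kb from position 0, and a peak was counted in the window that held its midpoint. Only repeated peaks were counted, which are peaks of the H3K4me3 replicate 1 list that shared at least 1 bp with a peak of the second narrow list. By this rule 288 of 19357 windows (1.49%) were dense, 28.8 Mb in all. The members were therefore chosen on measured values, and their number of repeated peaks, their spread over chromosomes and the spacing and width of these peaks are given as a description with no test.

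H3K4me3 is trimethylation of lysine 4 of histone H3, a mark that sits at the start and the proximal body of genes that are being transcribed. H3K27me3, trimethylation of lysine 27 of the same histone, is laid down by Polycomb complexes over genes that are kept silent in a tissue, and in plants it covers gene bodies. Upland cotton is an allotetraploid that carries an A and a D subgenome from different diploid ancestors, and chromosomes with the same number in both subgenomes are homoeologs. In the large chromosomes of cotton, genes lie mostly toward the ends and repeats fill the middle, so a window with many H3K4me3 peaks is commonly a gene-rich one.

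Chromatin immunoprecipitation followed by sequencing was done on leaves of 20-day-old plants of the untreated Gossypium hirsutum cultivar TM-1, after digestion with micrococcal nuclease. The 6 libraries are H3K4me3, H3K27me3 and input without antibody, with 2 libraries each. The study calls the libraries of a mark biological replicates and does not describe which plants each came from. Whole leaves hold many cell types, so peaks from different cells are merged. Only the 4 antibody libraries came with peak lists, of 3 columns each, and since no genes were measured the leaf label could not be checked against marker genes.

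The H3K4me3 replicate 1 list held 69877 peaks on the chromosomes and the H3K27me3 replicate 1 list held 20749. For the replicate 2 lists, the mark in the deposited name and the mark in the sample label are exchanged. The list labelled H3K27me3 replicate 2 has narrow peaks (42643, median width 474 bp) and is the one the rule used for repeats. The list labelled H3K4me3 replicate 2 has broad peaks (24430, median width 1230.5 bp, against 1379 bp in H3K27me3 replicate 1), and its coverage is given beside that of H3K27me3 replicate 1. If the labels rather than the names were followed for the repeat, 8 windows would reach 10 peaks instead of 288. The lists give positions only, so the depth behind a peak is unknown, and 2 libraries against 2 could not give a p below 0.333 in an exact permutation test.

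Of the H3K4me3 replicate 1 peaks on chromosomes, 36989 (52.9%) were repeated, and 3211 of these (8.68%) lay in dense windows. Most members were close to the minimum. There were 122 windows with 10 repeated peaks, 82 with 11, 39 with 12 and 27 with 13, so that 204 members (70.8%) held 10 or 11. Another 18 held 14 or more, 12 of them on A and 6 on D chromosomes, and 9 of the 18 lay on chromosome pair 5. Just outside the threshold were 184 windows with 9 repeated peaks. These had a median distance to the chromosome end of 5.61% of its length and a mean H3K27me3 coverage of 3.80%, against 7.0% and 3.42% in the windows with 10, so the threshold does not mark a break in either measure. For comparison, the 2385 windows with 5 to 9 repeated peaks are called intermediate windows here. All other windows are the 19069 that were not dense, the intermediate ones included.

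Dense windows lay on every chromosome, in unequal numbers. The A chromosomes held 131 (1.13% of their 11608 windows) and the D chromosomes 157 (2.03% of their 7749), so 54.5% were on D although D has fewer windows. By number there were more on D in 6 of the 13 pairs, more on A in 5 and equally many in 2. As a share of the chromosome's windows, D was higher in 12 of 13 pairs. Pair 4 was the exception, with 0.794% on A04 and 0.583% on D04.

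Chromosome pair 5 stood apart from the other pairs. A05 held 31 dense windows (3.37% of its windows, the highest share on A) and D05 held 42 (6.77%, the highest on D), together 25.3% of all members on 7.96% of all windows. On D05, 21.9% of the repeated peaks lay in dense windows, and on A05 15.5%. Pairs 5, 11 and 12 together held 144 members (50.0%) on 23.8% of the windows, with 15 on A11, 23 on D11, 17 on A12 and 16 on D12. The lowest share among A chromosomes was found on A10, with 1 dense window (0.0991%), and the lowest among D chromosomes on D04, with 3 (0.583%). Chromosomes of a pair resembled each other in their number of dense windows, with Pearson's r = 0.948 (Spearman's rho 0.881) over the 13 pairs and r = 0.832 (rho 0.849) without pair 5. This is a description over pairs that share their libraries, and the rule set the numbers.

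**Figure D1:**
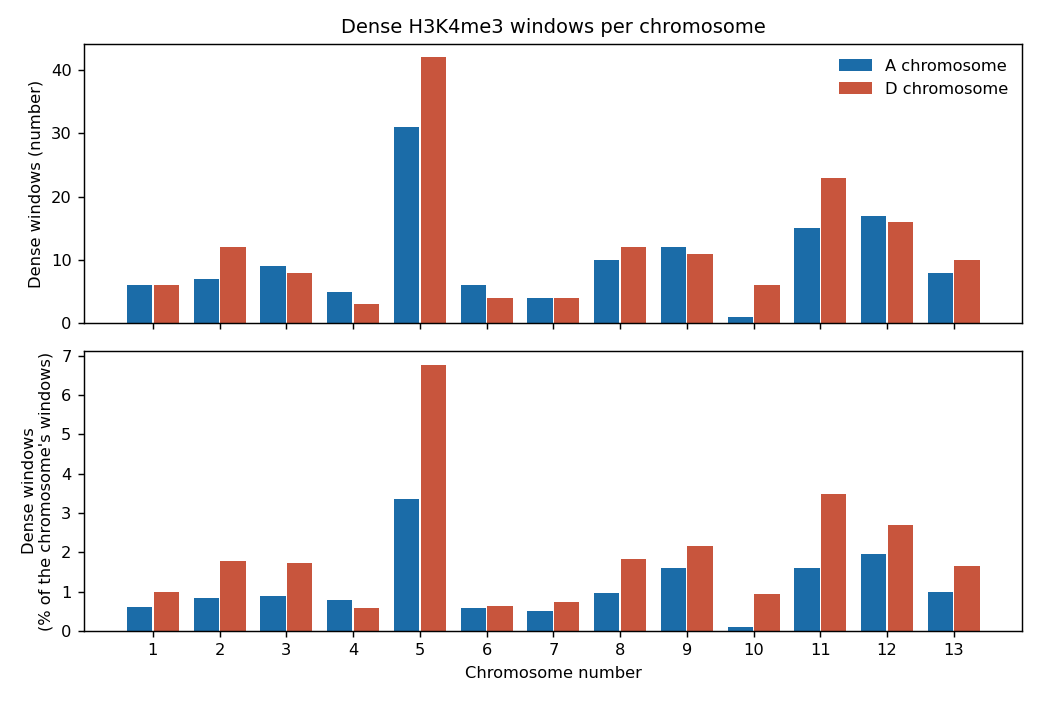
Number of dense windows per chromosome (top) and dense windows as a percent of the chromosome's windows (bottom), by chromosome number, with A chromosomes in blue and D chromosomes in red. Pair 5 has the tallest bars in both panels (31 and 42 windows), and the D bar is the higher in the bottom panel in every pair but pair 4.

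Dense windows lay near chromosome ends. A window's distance to the nearer outermost peak of any list was taken in percent of the length between the outermost peaks, so that 0 is an end and 50 the middle. The mean over chromosomes was 5.48% in dense, 11.7% in intermediate and 25.3% in all other windows. The distance was 6.18 points shorter in dense than in intermediate windows (difference -6.18 ± 2.01, SD over n = 13 chromosome numbers, 95% interval -7.41 to -4.98) and 19.8 points shorter than in all other windows (difference -19.8 ± 3.59, interval -21.9 to -17.6). Each difference was below 0 in 13 of 13 chromosome numbers (exact two-sided sign-flip permutation test, p = 0.000244, the smallest it can give, adjusted p = 0.000610 over 5 tests). Chromosomes are not biological replicates, so these tests measure how steady a difference is over the genome in these libraries.

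In absolute terms the median dense window was 3.84 Mb from an end, against 6.58 Mb for intermediate windows, and the farthest was 27.3 Mb away. Within 1 Mb of an end lay 72 members (25.0%, against 2.76% of all windows), and they came from 24 of the 26 chromosomes. The outer 5% of length at either end held 138 members (47.9%), against 10.1% of all windows. The outer 10% held 209 (72.6%), against 53.1% of intermediate and 20.1% of all windows. The outer 20% held 268 (93.1%), against 40.1% of all windows. On 9 chromosomes, A10 with its 1 member included, all dense windows lay on the same side of the middle, and over the genome 160 lay on the side where positions start and 128 on the other.

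Pair 5 differed from the rest in place as well as in number. All 31 dense windows of A05 lay between 0.2 and 19.0 Mb of a chromosome whose last peak was at 92.0 Mb. Those of D05 lay between 0.2 and 27.4 Mb of 61.9 Mb, and 40 of 42 were in the first 20 Mb. Of the 73 members on pair 5, 29 (39.7%) were in the outer 10% of length, with a median distance of 13.97% to the end. Of the 215 other members, 180 (83.7%) were in the outer 10%, with a median of 3.23%. Without pair 5 the difference in distance between dense and intermediate windows was -6.46 points (n = 12 numbers, exact sign-flip adjusted p = 0.00122), so it kept its direction and its call.

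**Figure D2:**
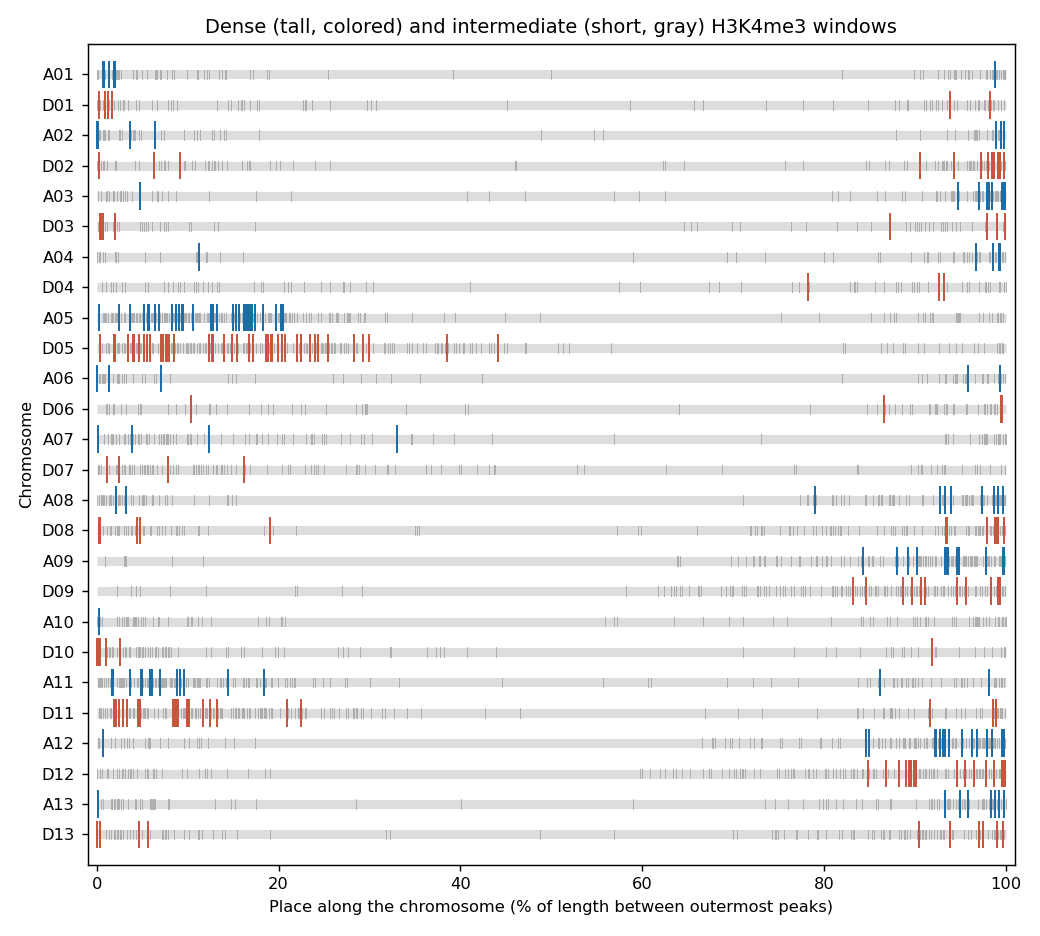
Place of each dense window (tall colored ticks, blue on A and red on D) and each intermediate window with 5 to 9 repeated peaks (short gray ticks, named intermediate in the title) along the 26 chromosomes, in percent of the length between the outermost peaks. Most tall ticks are within 10% of an end (209 of 288), and the dense windows of A05 and D05 spread over a broad stretch on the same side of the middle.

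Most dense windows had no dense neighbor, but dense neighbors were more common than dense windows are in the genome. The 288 members formed 243 runs, of which 208 were single windows, 27 held 2 windows, 7 held 3 and 1 held 5, so that 80 members (27.8%) had a dense neighbor. Of the 571 windows next to a member, 90 (15.8%) were dense, against 1.49% of all windows, a difference given as a description since the rule set both. Another 280 (49.0%) were intermediate and 184 (32.2%) held 1 to 4 repeated peaks, while 17 (2.98%) held none. The longest run on D was D11 from 5500001 to 6000000, positions counted from 1 in the TM-1 assembly that the study aligned to, with 11, 12, 10, 13 and 11 repeated peaks in its 5 windows. Its windows were 2.30%, 2.16%, 2.87%, 3.47% and 0% covered by H3K27me3 replicate 1, against a median of 1.45% over all members. In the list labelled H3K4me3 replicate 2 the values were 3.09%, 0%, 3.67%, 3.29% and 0%. On A the longest run was A12 from 87100001 to 87400000, near the end of the chromosome, with 10, 11 and 10 repeated peaks. There the coverage was 1.91%, 9.96% and 8.50%, higher in the 2 windows nearer to the end. With the grid moved by 50 kb, 296 windows were dense and 190 members (66.0%) overlapped one of them.

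Neighboring repeated peaks in dense windows were a median of 6.13 kb apart from midpoint to midpoint, over 2923 distances (quartiles 3.08 and 11 kb). The median was 6.03 kb on A and 6.20 kb on D. In intermediate windows it was 8.65 kb and in windows with 1 to 4 repeated peaks 13.05 kb, an order that the rule fixes. Close pairs of peaks were about equally common in all of these: 398 gaps in dense windows (13.6%) were under 500 bp from edge to edge, against 12% in intermediate windows and 12.7% in those with 1 to 4. At least 1 such gap occurred in 218 of the 288 members. This number was not counted for other windows, and a window with more peaks has more gaps. Distances over 20 kb made up 6.26% in dense windows, 20.5% in intermediate windows and 37.3% in windows with 1 to 4 repeated peaks, which the rule also sets, since 10 peaks in 100 kb leave room for few of them.

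**Figure D3:**
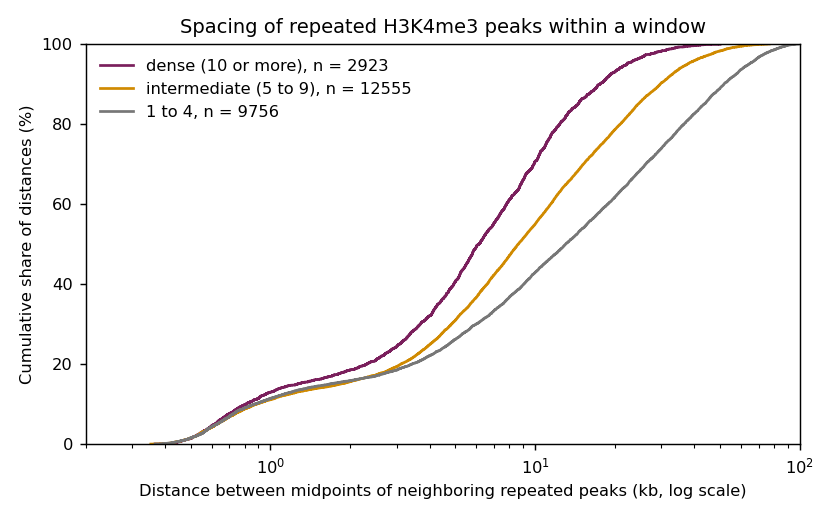
Cumulative share of the distances between midpoints of neighboring repeated peaks in the same window (log axis, kb), for dense windows (2923 distances), intermediate windows with 5 to 9 peaks (12555) and windows with 1 to 4 (9756). The 3 curves run together below 1 kb and part above it, with medians of 6.13, 8.65 and 13.05 kb.

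The repeated peaks were about as wide in dense as in intermediate windows, and narrower than in windows with 1 to 4 repeated peaks. The median width of repeated peaks was 597 bp in dense, 588 bp in intermediate and 637.5 bp in windows with 1 to 4 of them. A member had between 3.82 and 12.6 kb under repeated peaks (median 7.05 kb), and its repeated peaks spanned 47.5 to 100.05 kb (median 83.6 kb). All replicate 1 peaks in a member numbered 10 to 26 (median 15), of which 0 to 13 (median 4) were not repeated, and 6 members held no unrepeated peak. The second narrow list held 8 to 19 peaks in a member (median 12). The share of replicate 1 peaks that repeated was 70.7% of 4539 in dense windows, 61.9% in intermediate windows and 51.8% in windows with 1 to 4, again an order that the rule favors.

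H3K27me3 reached most dense windows but covered little of them. A peak of H3K27me3 replicate 1 touched 202 of the 288 members (70.1%, exact Clopper-Pearson 95% interval 64.5% to 75.4%), against 66.7% of intermediate windows and 41.2% of all windows. A peak of the list labelled H3K4me3 replicate 2 touched 219 (76.0%, interval 70.7% to 80.9%), against 70.1% of intermediate windows and 43.0% of all. Both broad lists touched 198 members and neither touched 65. The intervals treat windows as independent and cover counting error only.

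The share of a dense window's bases under H3K27me3 replicate 1 averaged 3.20% (median 1.45%, range 0% to 22.1%), against 3.84% in intermediate windows and 2.46% in all other windows. In the list labelled H3K4me3 replicate 2 these means were 3.73%, 4.33% and 2.58%. Both broad lists ranked the members alike, with r = 0.977 (rho 0.957) over the 288 windows, a description of calls from windows of shared sequence. Of the members, 86 had no base under H3K27me3 replicate 1 and 21 (7.29%) had 10% or more, the same 21 being at 10% or more in the other broad list too. Among intermediate windows 11.8% had 10% or more in H3K27me3 replicate 1, and among all windows 6.91%, near the share of the members.

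Averaged over the 13 chromosome numbers, neither difference in coverage passed the test. Each chromosome had equal weight, so the 1 dense window of A10, with 0% coverage, counted as much as the 42 of D05. Dense windows were 2.99% covered and intermediate windows 3.73%, a difference of -0.735 points ± 1.84 (SD, n = 13, 95% interval -1.86 to 0.379, below 0 in 9 of 13, exact sign-flip permutation p = 0.174, adjusted p = 0.290). Against all other windows (2.64%) the difference was 0.357 points ± 1.82 (interval -0.765 to 1.47, above 0 in 8 of 13, exact sign-flip permutation p = 0.483, adjusted p = 0.483). Coverage from the list labelled H3K4me3 replicate 2 gave -0.743 and 0.675 points, each with an adjusted p of 0.258 in the same exact test. Averaged in the same way, the share of windows touched by H3K27me3 was 18.4 points higher in dense than in all other windows (above 0 in 11 of 13 numbers, adjusted p = 0.0163 by the exact sign-flip test). Against intermediate windows it was -4.00 points (above 0 in 6 of 13, exact sign-flip adjusted p = 0.489), opposite in sign to the pooled shares of 70.1% and 66.7% and not past the threshold.

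Place along the chromosome moved with these values. In the outer 10% of length, the mean coverage by H3K27me3 replicate 1 fell with the number of repeated peaks, from 8.98% in windows with none to 6.78% in windows with 1 to 4, 4.88% in intermediate and 3.28% in dense windows. In the inner part the order was turned round, from 0.972% in windows with none to 1.87%, 2.66% and 3.01% in dense windows. The 209 outer and 79 inner members thus had means near each other, while all other windows had 6.42% in the outer and 1.51% in the inner part. These means pool the windows of all chromosomes and were not tested. Pair 5 had 29 of its 73 members in the outer 10%, against 180 of the 215 other members, so it weighs heavily among the inner ones. Mean coverage of members was 3.61% on pair 5 and 3.07% elsewhere. Within the outer 10%, a comparison chosen after the data were seen, dense windows were 1.67 points less covered than intermediate ones (difference -1.67, below 0 in 10 of 13 numbers, exact sign-flip adjusted p = 0.0305) and 3.53 points less than all other windows (difference -3.53, below 0 in 12 of 13, adjusted p = 0.00366). In the outer 20% the difference to intermediate windows was -1.17 and no longer passed (exact sign-flip adjusted p = 0.0729). The list labelled H3K4me3 replicate 2 gave, in the outer 10%, -1.86 (adjusted p = 0.0217) and -3.59 (adjusted p = 0.00366) by the same exact test, n = 13. These calls depend on the demand for a repeat: with no repeat asked, neither outer 10% difference in H3K27me3 replicate 1 coverage passed, as given below.

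**Figure D4:**
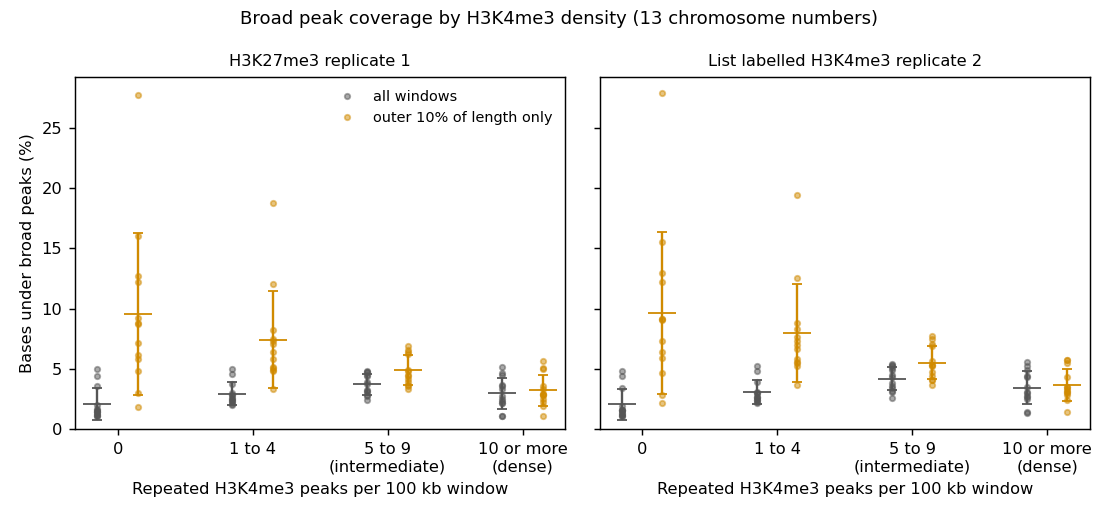
Percent of bases under broad peaks in windows with 0, 1 to 4, 5 to 9 and 10 or more repeated H3K4me3 peaks, for H3K27me3 replicate 1 (left) and the list labelled H3K4me3 replicate 2 (right). Each point is the mean of 1 chromosome number, bars are the mean and SD over numbers, and colors part all windows (gray) from those in the outer 10% of length (orange), where coverage falls toward the dense windows. With no repeat asked, neither difference of dense windows in H3K27me3 replicate 1 coverage passed the test in the outer 10%.

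The rule's demand for a repeat also moved with H3K27me3. Few repeated peaks were inside it: 39 of the 3211 repeated peaks of dense windows (1.21%, exact interval 0.865% to 1.66%) overlapped H3K27me3 replicate 1, and 38 (1.18%) the list labelled H3K4me3 replicate 2. The share was low elsewhere too, with 1.29% of repeated peaks in intermediate windows and 2.13% in windows with 1 to 4, so it is not particular to dense windows. Of the 1328 unrepeated replicate 1 peaks in the same windows, 18.6% (interval 16.5% to 20.8%) did so, against 21.4% in intermediate windows and 28.1% in windows with 1 to 4, and those of dense windows had a median width of 352.5 bp. When 10 or more replicate 1 peaks were enough and no repeat was asked, dense windows were more covered by H3K27me3 than intermediate ones (1.29 points, exact sign-flip adjusted p = 0.00214, n = 13) and than all other windows (3.52 points, adjusted p = 0.000407). In the outer 10% without the repeat, the differences were -0.828 (adjusted p = 0.585) and -0.339 points (adjusted p = 0.809) by the same exact test. Over all windows, the difference to intermediate windows thus turned from -0.735 to 1.29 points when no repeat was asked. The difference to all other windows and both differences in the outer 10% kept their direction and changed in size. The part of this choice of peaks in the result was not otherwise tested.

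The H3K27me3 replicate 1 peaks of dense windows were narrower at the median than those of intermediate windows. Whether they lay between the repeated H3K4me3 peaks was not measured. The members held 496 H3K27me3 replicate 1 peaks, at most 8 in a window, with a median width of 1049.5 bp against 1284 bp in intermediate windows. Of these peaks 29.4% were 2 kb or wider, against 34.4% in intermediate windows. A repeated H3K4me3 peak of a dense window was a median of 28.5 kb from the nearest H3K27me3 replicate 1 peak (29.8 kb in intermediate windows), and 9.41% were within 5 kb of one (11.02% in intermediate windows).

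On A, 83 of 131 members (63.4%) were touched by H3K27me3 replicate 1, and on D 119 of 157 (75.8%), against 33.7% of all A and 52.4% of all D windows. Mean coverage of dense windows over chromosomes was 2.80% on A and 3.19% on D, and the D minus A difference of 0.383 points ± 1.83 (SD, n = 13 pairs, interval -0.739 to 1.50, above 0 in 7 of 13) did not pass the exact sign-flip permutation test (p = 0.459, adjusted p = 0.483). Counted as windows touched and averaged over pairs with equal weight for each chromosome, the difference was 19.2 points (exact sign-flip p = 0.0337, adjusted p = 0.0421, n = 13). The 5 tests of this adjustment include those of distance, which counting windows touched does not change, so the call depends on that family. Over all windows D was also touched more often than A (52.4% against 33.7%), so a higher share on D is not particular to dense windows. Among chromosomes with 4 or more members, mean coverage went from 0.629% on D07 and 0.680% on A09 to 5.43% on A03 and 5.09% on A12.

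The fullest window was D08 from 65700001 to 65800000, 0.140 Mb from the last peak of the chromosome. It held 20 repeated peaks, 4 more than any other member, out of 23 in H3K4me3 replicate 1, with 19 peaks in the second narrow list, at a median spacing of 3.38 kb. It was 0.941% covered by H3K27me3 replicate 1 and 2.13% by the list labelled H3K4me3 replicate 2, against medians of 1.45% and 2.14% over all members. Next on D came D05 from 8600001 to 8700000, with 16 repeated of 26 replicate 1 peaks and coverage of 11.97% and 12.32% in the 2 broad lists, and D05 from 5200001 to 5300000, with 15 repeated of 22 peaks and no base under a broad peak. These 2 members of the same chromosome thus differed in H3K27me3 in both broad lists.

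On A the 3 fullest windows each held 16 repeated peaks. Of these, A05 from 14900001 to 15000000 had 23 replicate 1 peaks and coverage of 4.49% and 4.42%. A second window on the same chromosome, A05 from 15300001 to 15400000, also had 23 replicate 1 peaks, with coverage of 5.63% and 6.46%. The other was A13 from 79800001 to 79900000, 0.104 Mb from the last peak of its chromosome, with 22 replicate 1 peaks and coverage of 1.65% and 3.53%. All 3 were thus below 10% in both broad lists.

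The members with the most H3K27me3 were A03 from 99800001 to 99900000 and D12 from 57800001 to 57900000, each with 12 repeated peaks. Coverage was 22.1% and 23.5% in the A03 window and 19.3% and 19.8% in the D12 window, for H3K27me3 replicate 1 and the list labelled H3K4me3 replicate 2. The A03 window held 7 H3K27me3 replicate 1 peaks, the widest of 9401 bp from 99854352 to 99863752. No gene is named in these regions, since no annotation of that assembly was used here.

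**Figure D5:**
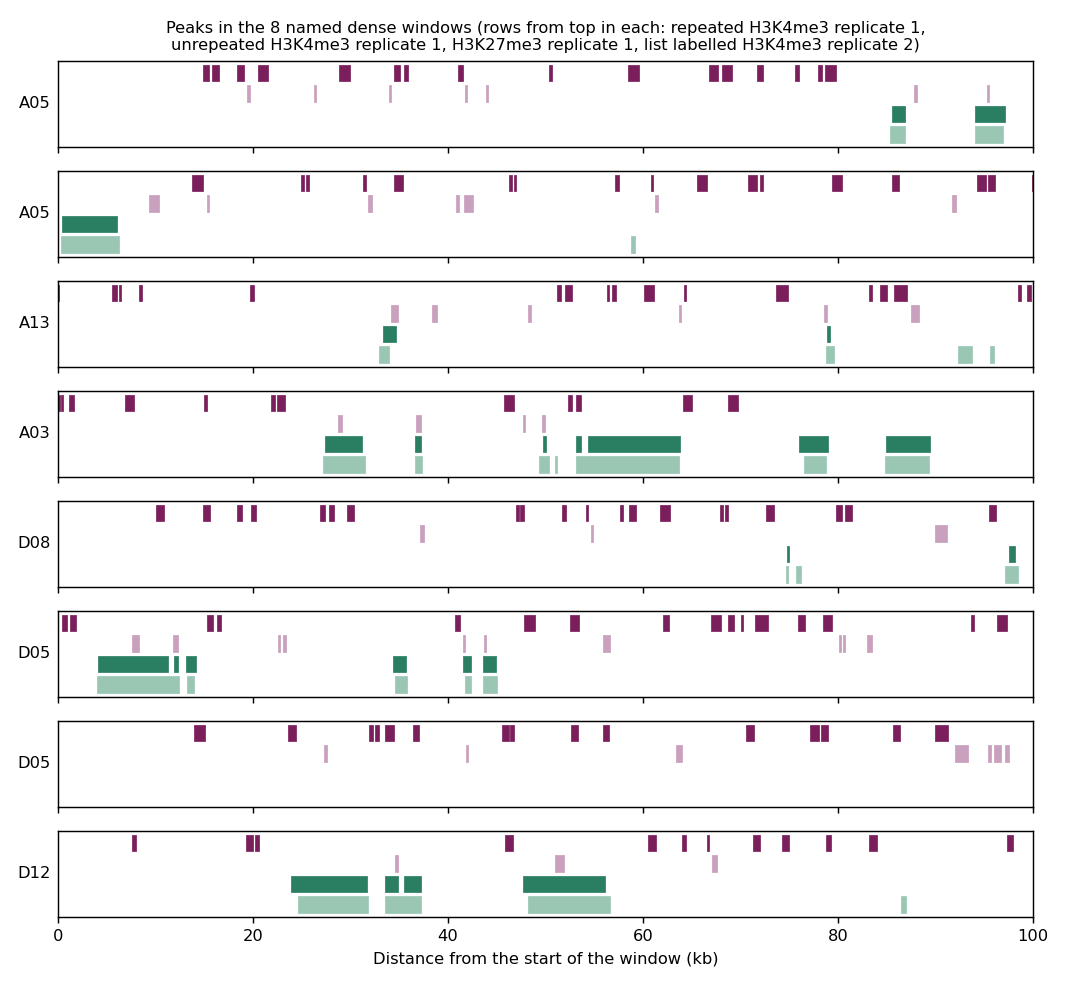
Peaks in the 8 dense windows named for the most repeated peaks or the highest H3K27me3 coverage, by distance from the start of the window in kb, from top to bottom the 4 on A and the 4 on D in the order A05, A05, A13, A03, D08, D05, D05, D12. In each panel the tracks from top to bottom are repeated and unrepeated H3K4me3 replicate 1 peaks, H3K27me3 replicate 1 and the list labelled H3K4me3 replicate 2, and few repeated peaks overlap H3K27me3 (39 of 3211 over all dense windows).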

How the data were processed

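Peak lists of 4 leaf ChIP-seq libraries were used, grouped by sample label into H3K4me3 and H3K27me3. As the study's methods describe, reads were trimmed by the authors with fastp, who aligned them with Bowtie2 to a published TM-1 genome, removed duplicates with Picard and weak alignments with samtools, and called peaks with MACS2, in broad mode for H3K27me3 and in narrow mode for H3K4me3. The study writes that its peaks were called from replicate 1 only, with replicate 2 used to check their reproducibility. How the replicate 2 lists were called is therefore not described. Versions and the use of the input libraries are not given in the sources used here. The deposited lists hold peak positions in bp only, with no height or read number, so depth and its precision are unknown. Broad mode joins neighboring stretches, so widths were not compared between narrow and broad lists.

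Windows, overlaps (at least 1 bp) and coverage were computed in Python 3.11.15 with numpy 2.4.6, and repeats were checked with bedtools 2.31.1 (0 of 26 chromosomes differed). Peaks on scaffolds were left out. Differences were taken within chromosomes, averaged per chromosome number, and tested by exact sign-flip permutation (two-sided, 8192 patterns), with Benjamini-Hochberg adjustment over 5 tests and a threshold of 0.05. In these averages each chromosome had equal weight, whatever its number of dense windows. For alternatives that concern coverage only, the 5 tests included those of distance, which are not reported for them. Intervals of shares are Clopper-Pearson (scipy 1.17.1). Figures were drawn with matplotlib 3.10.9, and the test was tested on simulated data. Named regions are, in each subgenome, the 3 windows with the most repeated peaks, the longest run, the window with the highest H3K27me3 replicate 1 coverage and the chromosomes with the highest and lowest share of dense windows. The windows, classes and tests were chosen with earlier results of these data known. Alternatives were the minimum number of peaks, grid and window size, overlap, width and merging of peaks, the repeat, the broad list, the windows touched and omission of each chromosome number. The comparisons within the outer 5%, 10% and 20% of length, the count with scaffolds and the comparison of the A with the D contrasts, in percent and in Mb, were chosen after the data were seen.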

Additional observations from a re-analysis of the deposited data

Results flagged for a closer look

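The difference in place between dense and intermediate windows was larger on D than on A chromosomes in percent of chromosome length, but not in Mb. In percent of chromosome length, the distance to the end in dense minus intermediate windows was -4.95 on A and -7.40 on D, so dense windows were nearer to an end on both. The D minus A difference of these was -2.45 ± 2.94 (SD, n = 13 pairs, below 0 in 12 of 13, exact two-sided sign-flip permutation p = 0.00708, adjusted p = 0.0283 over 4 comparisons). In Mb the dense minus intermediate distance was -4.48 on A and -4.42 on D, a D minus A difference of 0.0610 ± 2.39 (n = 13 pairs, above 0 in 7 of 13, exact sign-flip permutation p = 0.925, chosen after the data were seen). Median distances of intermediate windows were 7.13% and 6.41 Mb on A and 11.2% and 6.73 Mb on D. Those of dense windows were 5.01% and 4.54 Mb on A and 5.70% and 3.50 Mb on D, so the order of the subgenomes in dense windows turned with the scale. The 3 other comparisons of this kind did not pass, including H3K27me3 coverage against all other windows (1.05 points on A, -0.336 on D, exact sign-flip adjusted p = 0.0776, n = 13).

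Scaffolds, which entered no comparison, held 3493 repeated H3K4me3 peaks and 18 windows with 10 or more of them. Of these, 12 were on scaffolds named for an A chromosome and 6 on those named for a D chromosome, and the fullest held 13. The number of all scaffold windows is not given for either subgenome, so 12 and 6 cannot be read as a difference between A and D.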

How the results depend on the processing

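The number of dense windows depended on the rule's settings. It was 736 with a minimum of 8 peaks, 84 with 12, 51 with an overlap of 50% of both peaks, 153 with narrow peaks under 500 bp apart merged, 28 with peaks of 500 bp or more, 1908 with no repeat asked and 1334 with windows of 50 kb and a minimum of 5. With the repeat taken from the list labelled H3K4me3 replicate 2 it was 8, on 6 chromosome numbers, with differences to intermediate windows of 14.4 points in H3K27me3 coverage and 6.93 points in distance to the end. To all other windows they were 35.0 points in coverage (above 0 in 6 of 6, exact sign-flip permutation p = 0.0313, the smallest that n = 6 allows, adjusted p = 0.156) and -10.9 points in distance, and none was past the threshold after adjustment. The differences in distance kept their direction and call under the other alternatives.

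H3K27me3 coverage of dense minus all other windows changed sign with peaks of 500 bp or more (-0.512) and windows of 50 kb (-0.0501). It was 3.52 with no repeat asked and 18.4 as percent of windows touched. In the outer 10% of length it was -3.53 (-3.59 in the list labelled H3K4me3 replicate 2, -0.339 with no repeat asked), in the outer 5% -4.28 and in the outer 20% -1.87. Dense minus intermediate coverage was 1.29 with no repeat asked, -1.67 in the outer 10% (-1.86 by the list labelled H3K4me3 replicate 2), -2.41 within the outer 5% and -1.17 within the outer 20%, where it did not pass (exact sign-flip adjusted p = 0.0729, n = 13). Coverage of dense windows on D minus A was -0.0563 on the shifted grid, -2.05 with the 50% overlap (7 pairs), -0.218 with peaks of 500 bp or more (4 pairs), 0.904 with no repeat asked (1.45 within the outer 10%) and 19.2 points as windows touched. These last 3 passed the threshold (exact sign-flip adjusted p of 0.0320, 0.0187 and 0.0421, n = 13), which the difference in the report did not. For the windows touched, the call depends on counting the distance tests in the adjustment. Over all alternatives the adjusted p of the exact sign-flip test (n = 13 numbers or fewer) went from 0.00214 to 0.689 for dense minus intermediate coverage, from 0.000407 to 0.908 against all other windows and from 0.0187 to 0.985 for D minus A. Apart from the settings described in the report, the cause of these shifts was not tested.

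With each chromosome number left out in turn, dense minus intermediate coverage was between -1.03 and -0.483, dense minus all other coverage between 0.152 and 0.604, the distances between -6.46 and -5.84 and between -20.4 and -19.4, and D minus A coverage between 0.148 and 0.615. None of these changed a call. No paired analysis was possible because the lists hold positions without a value per peak, and replicates were not compared between groups. The unknown depth limits how far a missing peak can be read.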
